A study of Rattus norvegicus with 28 samples.

Results

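Upper layer neuron markers are transcripts by which the superficial layers of the cortex are told from the deep ones. The set described here holds 7 genes, Cux1, Cux2, Rorb, Calb1, Rasgrf2, Pou3f2 and Pou3f3, found by their symbols among the 36387 genes and transcripts of the deposited count table. All 7 are in that table under 1 gene record each, and all 7 were among the 17404 genes tested. RNA came from the prefrontal cortex of male Sprague-Dawley rats, adults that were 8 weeks old when they arrived, and per the labels each animal was injected into the peritoneum with ketanserin or its Tween-80 vehicle and then with psilocybin or saline. There were 7 groups of 4 biological replicates: psilocybin alone at 1 mg/kg or 3 mg/kg, ketanserin alone at 1 mg/kg or 3 mg/kg, both drugs at 1 mg/kg or both at 3 mg/kg, and a vehicle group that had both vehicles and no drug. The groups share the strain, the sex, the pair of injections and the time of collection, 24 h after injection. Psilocybin is a precursor of psilocin, a serotonin receptor agonist, and ketanserin is an antagonist of the serotonin 2A receptor, so the groups ask whether transcripts of these neurons differ a day after either drug and whether ketanserin alters what psilocybin does.

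The excitatory neurons of cortical layers II to IV are born late in development and mostly send axons within the cortex, whereas deep layer neurons send many of theirs to the brainstem, spinal cord and thalamus. Cux1 and Cux2 encode homeobox transcription factors that in mouse shape the dendrites and synapses of upper layer neurons. Pou3f2 and Pou3f3, also called Brn2 and Brn1, are POU domain factors that act together in mouse in the production, migration and identity of these neurons. Rorb encodes a nuclear receptor that marks layer IV, Rasgrf2 a guanine nucleotide exchange factor that links calcium to Ras and Rac, and Calb1 the calcium-binding protein calbindin, which also occurs in a class of interneurons and in striatal neurons.

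Total counts were 12783067 to 18538414 per library, and transcripts of the mitochondrial genome took 6.98 to 11.65% of them. The tissue label was checked on markers: Slc17a7, the vesicular glutamate transporter of cortical excitatory neurons, had 2100 to 2950 CPM, a count scaled to library size, across the 28 libraries, and the 14 deep layer markers in the table were also all detected. Replicate 4 of the group given both drugs at 3 mg/kg stood apart from the other 27 libraries on the first principal component, and 4 libraries had a mitochondrial share over 10%: replicate 2 after psilocybin at 1 mg/kg, replicate 1 after psilocybin at 3 mg/kg, replicate 2 after both drugs at 3 mg/kg and replicate 2 of the vehicle group. In bulk tissue, fewer cells of a type and less RNA per cell cannot be told apart.

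None of the 7 markers passed an adjusted p of 0.05 in any of 16 comparisons with edgeR's quasi-likelihood test, which fitted all 28 libraries in 1 model. DESeq2 called 0 of the 7 in each, and voom with sample weights called 1 in each of 3 comparisons, in which it called 349, 96 and 1249 genes in all, or 2.01%, 0.552% and 7.18% of those tested. The markers differed in how far they ranged over the 28 libraries. Cux1, Rorb, Rasgrf2 and Cux2 differed between the lowest and the highest library by 9.73-fold, 6.78-fold, 6.20-fold and 3.97-fold in CPM, against 1.83-fold for Calb1 and 1.49-fold for Pou3f3. In 6 of the 7 groups Cux1, Cux2 and Rasgrf2 had their lowest value in the same library, and in 3 of those 6 Rorb did too.

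Levels were compared between genes per length, in the authors' FPKM, which scales fragments to transcript length and library size. Over the 28 libraries Calb1 averaged 53.6 ± 6.70 FPKM and Pou3f3 26.5 ± 2.34 FPKM (SD, n = 28). Cux2 followed with 17.2 ± 5.20 FPKM, Pou3f2 with 7.92 ± 1.85 FPKM and Rasgrf2 with 5.07 ± 2.34 FPKM. Cux1 averaged 2.21 ± 0.786 FPKM and Rorb 1.72 ± 0.772 FPKM. Calb1 exceeded Pou3f3 in 28 of 28 libraries with ranges that did not overlap, 38.9 to 71.1 FPKM against 22.1 to 32.4 FPKM. Every other pair of neighbours in this order had overlapping ranges over the libraries, although Cux2 exceeded Pou3f2 and Rasgrf2 exceeded Cux1 within each of the 28. Cux1 was above Rorb in 22 of 28 libraries, with a median ratio of 1.25 within libraries, and their difference was not tested. CPM per kilobase gave the same order for all 7, but it scales to gene length and library size as FPKM does and is no independent check.

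**Figure D1:**
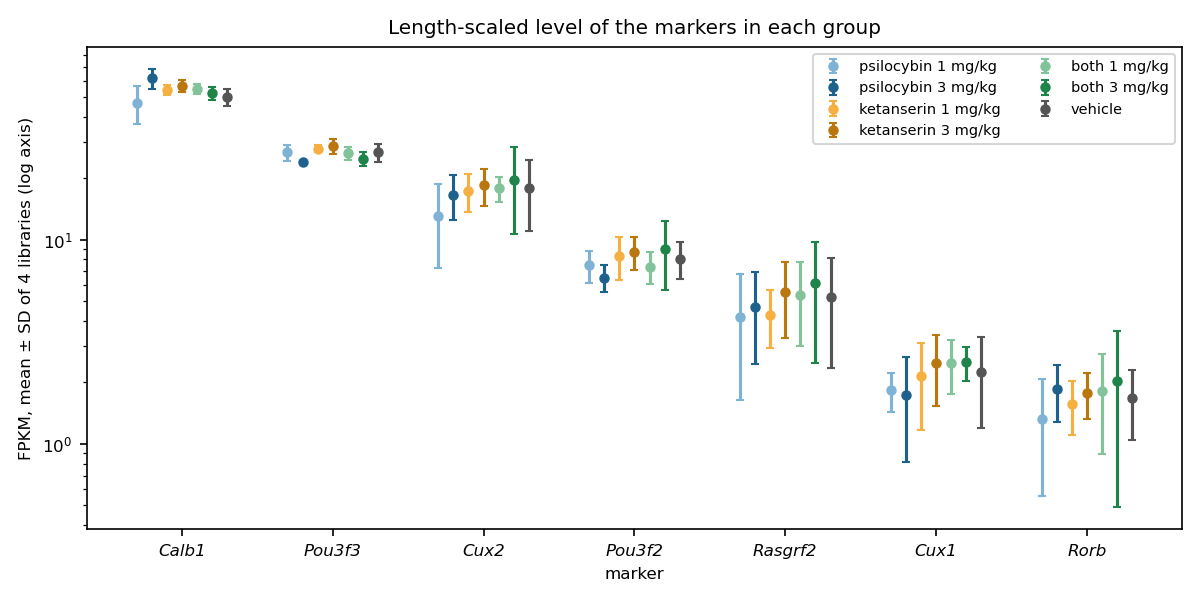
Mean FPKM of each marker in each group on a log axis, with bars of 1 SD over 4 libraries; groups run from psilocybin on the left to vehicle on the right within each marker. Calb1 lies highest and Rorb lowest, and the bars of Cux2, Rasgrf2, Cux1 and Rorb are wide beside those of Calb1 and Pou3f3.

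Cux2, on chromosome 12 from 40018937 to 40219291 (rn6, plus strand), and Rasgrf2, on chromosome 2 from 21559368 to 21698937 (minus strand), were the pair that varied most closely together. Their promoters are shown for that reason, as the 250 bases before the RefSeq start on build GRCr8, with capitals for a GC box (GGGCGG) or a CCAAT box (CCAAT) on either strand.
Cux2 (chr12:40179032-40179281, plus strand): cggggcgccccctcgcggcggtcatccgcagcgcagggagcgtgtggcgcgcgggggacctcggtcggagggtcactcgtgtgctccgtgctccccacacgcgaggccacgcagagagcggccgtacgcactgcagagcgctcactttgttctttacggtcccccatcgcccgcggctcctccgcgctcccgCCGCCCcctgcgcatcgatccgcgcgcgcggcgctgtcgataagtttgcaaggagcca
Rasgrf2 (chr2:25096612-25096861, minus strand): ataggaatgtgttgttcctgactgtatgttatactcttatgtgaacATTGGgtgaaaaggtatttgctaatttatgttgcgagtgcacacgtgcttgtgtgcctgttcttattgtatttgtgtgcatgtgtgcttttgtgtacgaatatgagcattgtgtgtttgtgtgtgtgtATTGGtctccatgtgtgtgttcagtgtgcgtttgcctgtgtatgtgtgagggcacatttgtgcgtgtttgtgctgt
The windows differ in base composition. That of Cux2 holds 39 CpG dinucleotides and 72.4% G and C, against 5 and 41.6% in that of Rasgrf2, and the median of 33469 rat promoters in the table is 5 and 51.2%. Cux2 has 1 GC box and no CCAAT box here, and Rasgrf2 has 2 CCAAT boxes and no GC box. A GC box occurs in 30.5% of those promoters and a CCAAT box in 34.0%. The table holds promoters of 5 of the 7 markers; those of Calb1 and Pou3f3 are not shown.

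Cux2 had 91.7, 38.6, 44.6 and 93.2 CPM after psilocybin at 1 mg/kg and 53.7, 90.0, 101 and 94.1 CPM after psilocybin at 3 mg/kg. Ketanserin alone gave 76.2, 77.2, 85.5 and 116 CPM at 1 mg/kg and 78.5, 99.4, 121 and 79.7 CPM at 3 mg/kg. Both drugs gave 102, 91.8, 73.4 and 98.8 CPM at 1 mg/kg and 89.3, 45.6, 112 and 153 CPM at 3 mg/kg, against 129, 44.9, 103 and 91.0 CPM in the vehicle group. Every drug group overlapped the vehicle group, and the vehicle group held both a low library, replicate 2, and a high one, replicate 1.

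Rasgrf2 followed the same libraries. It had 13.5, 5.08, 5.79 and 18.9 CPM after psilocybin at 1 mg/kg and 4.47, 13.6, 11.9 and 18.4 CPM at 3 mg/kg. With ketanserin alone there were 11.2, 8.60, 8.32 and 15.9 CPM at 1 mg/kg and 9.71, 15.4, 22.2 and 9.95 CPM at 3 mg/kg. With both drugs there were 15.7, 12.6, 6.22 and 20.9 CPM at 1 mg/kg and 12.4, 5.95, 16.6 and 27.7 CPM at 3 mg/kg, against 20.8, 4.75, 18.3 and 10.1 CPM in the vehicle group. All groups overlapped, and the lowest library of each psilocybin group, of the group given both drugs at 3 mg/kg and of the vehicle group was the one with a mitochondrial share over 10%.

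Cux1, on chromosome 12 from 23151180 to 23445074 (plus strand), had 8.51, 6.18, 8.07 and 10.6 CPM after psilocybin at 1 mg/kg and 1.77, 9.59, 11.4 and 8.91 CPM at 3 mg/kg. Its values were 5.68, 12.8, 6.25 and 14.4 CPM after ketanserin at 1 mg/kg and 7.17, 11.7, 17.3 and 9.19 CPM after 3 mg/kg. Animals given both drugs had 11.8, 11.1, 7.05 and 15.3 CPM at 1 mg/kg and 14.0, 8.58, 11.5 and 11.3 CPM at 3 mg/kg, against 12.2, 3.83, 15.2 and 10.1 CPM in the vehicle group. Replicate 1 after psilocybin at 3 mg/kg was the lowest of all 28, with a count of 25, and the vehicle group spanned from low to high by itself.

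Rorb, on chromosome 1 from 234252757 to 234435839 (plus strand), was the sparsest marker, with 20 to 135 counts per library. Psilocybin gave 4.06, 1.58, 1.75 and 5.42 CPM at 1 mg/kg and 2.41, 5.08, 5.20 and 5.24 CPM at 3 mg/kg, and ketanserin 3.19, 3.73, 2.86 and 5.45 CPM at 1 mg/kg and 3.98, 3.72, 6.01 and 3.65 CPM at 3 mg/kg. Both drugs gave 5.50, 3.91, 1.52 and 6.78 CPM at 1 mg/kg and 2.63, 3.78, 2.79 and 10.3 CPM at 3 mg/kg, against 3.38, 3.30, 6.32 and 3.22 CPM in the vehicle group. The highest value belonged to the library that stood apart on the first principal component, and all drug groups overlapped the vehicle group.

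Pou3f2, on chromosome 5 from 36681528 to 36683356 (minus strand), is counted over a model whose length equals its genomic span. It had 14.1, 10.7, 13.9 and 16.7 CPM after psilocybin at 1 mg/kg and 13.1, 13.5, 11.8 and 9.59 CPM at 3 mg/kg, and 14.3, 14.5, 11.8 and 20.5 CPM after ketanserin at 1 mg/kg and 12.6, 16.0, 20.0 and 15.6 CPM at 3 mg/kg. Both drugs gave 14.6, 14.1, 10.1 and 15.7 CPM at 1 mg/kg and 14.8, 8.99, 19.5 and 23.1 CPM at 3 mg/kg, against 18.9, 11.7, 16.0 and 13.2 CPM in the vehicle group. The groups overlapped, and both the lowest and the highest of the 28 values came from the group given both drugs at 3 mg/kg.

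Pou3f3, on chromosome 9 from 49479023 to 49482252 (plus strand), was the steadiest marker. It had 75.6, 84.9, 80.6 and 93.3 CPM after psilocybin at 1 mg/kg and 74.7, 74.6, 74.1 and 77.0 CPM at 3 mg/kg, and 84.2, 88.4, 83.0 and 90.7 CPM after ketanserin at 1 mg/kg and 84.9, 85.7, 102 and 87.1 CPM at 3 mg/kg. Both drugs gave 85.2, 79.3, 76.7 and 90.4 CPM at 1 mg/kg and 83.0, 68.4, 82.3 and 75.5 CPM at 3 mg/kg, against 94.4, 72.8, 86.7 and 81.3 CPM in the vehicle group. Each drug group overlapped the vehicle group.

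Calb1, on chromosome 5 from 29538380 to 29562773 (plus strand), had 104, 67.0, 67.7 and 82.2 CPM after psilocybin at 1 mg/kg and 123, 103, 104 and 94.7 CPM at 3 mg/kg. Ketanserin gave 89.0, 97.3, 96.6 and 87.7 CPM at 1 mg/kg and 105, 93.7, 91.7 and 99.4 CPM at 3 mg/kg. Both drugs gave 101, 96.3, 90.0 and 89.7 CPM at 1 mg/kg and 90.6, 81.7, 87.4 and 96.1 CPM at 3 mg/kg, against 95.5, 75.2, 87.8 and 85.0 CPM in the vehicle group. Psilocybin at 3 mg/kg held the highest mean, 106 ± 11.8 CPM, and psilocybin at 1 mg/kg the lowest, 80.1 ± 17.2 CPM, against 85.9 ± 8.38 CPM in the vehicle group (SD, n = 4 each), and the ranges of all 3 overlapped.

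**Figure D2:**
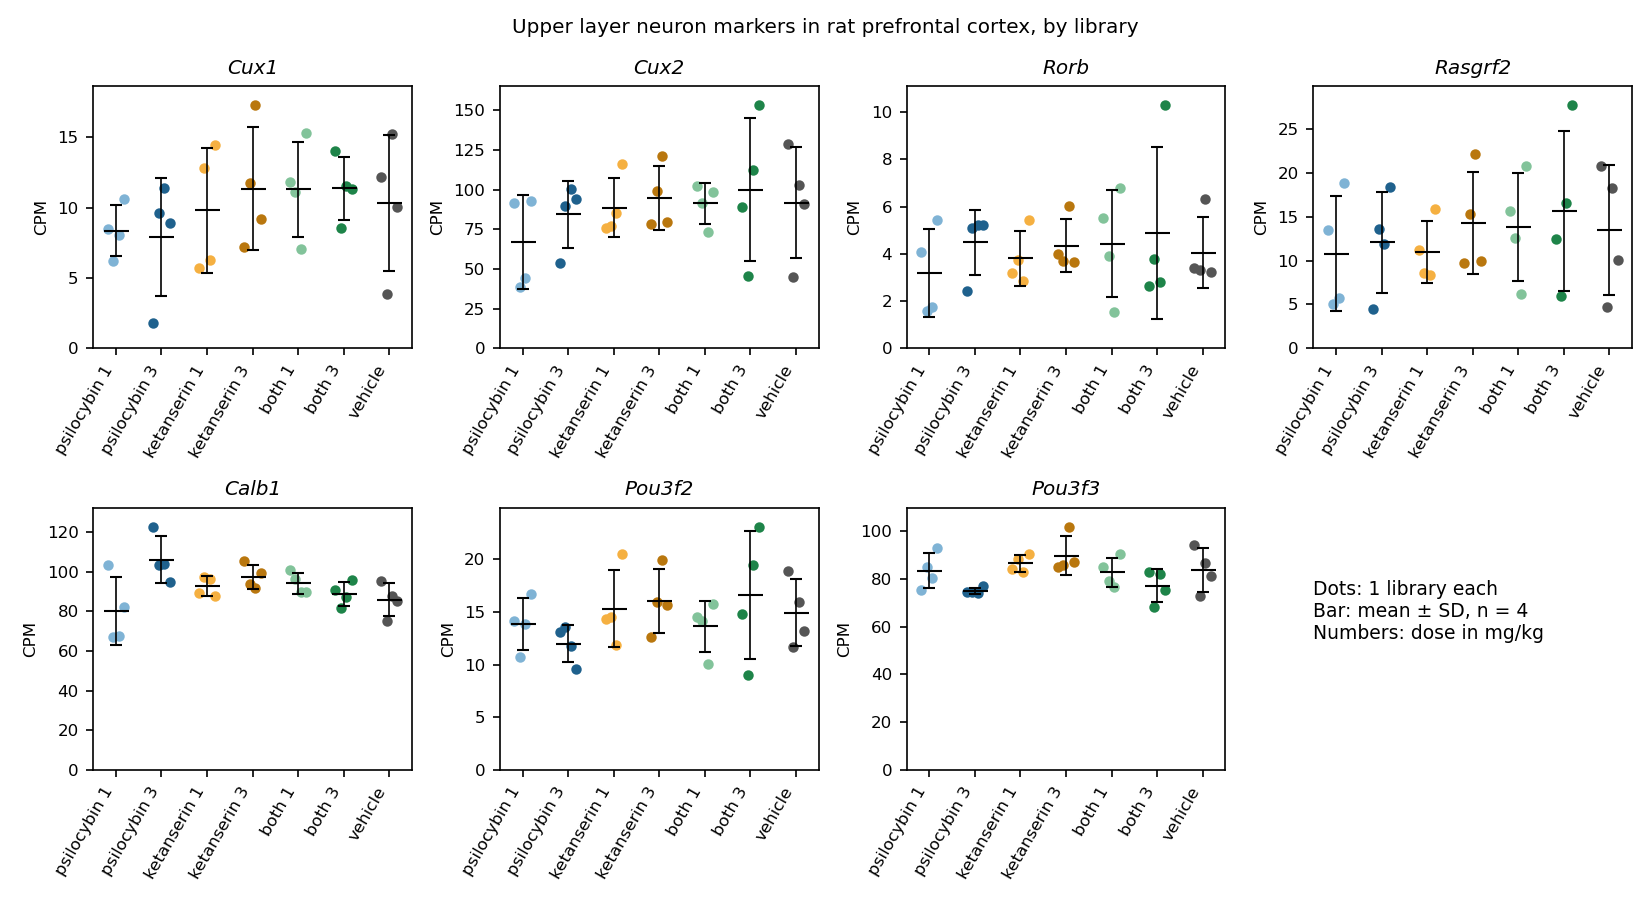
CPM of each marker in the 28 libraries, with dots for libraries and bars for the mean ± SD of 4; drug groups stand left of the vehicle group and each vertical axis starts at 0. Cux1, Cux2, Rorb and Rasgrf2 scatter widely within groups, while Calb1 runs from 67.0 to 123 CPM and Pou3f3 from 68.4 to 102 CPM.

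After psilocybin at 1 mg/kg all 7 markers had estimates below the vehicle group, with a median log2 fold change of -0.31 against -0.01 over all tested genes. Cux2 had the smallest p, with a log2 fold change of -0.45 ± 0.329 (SE) and a 95% interval from -1.13 to 0.22. The estimate was -0.34 ± 0.458 for Rorb, -0.32 ± 0.510 for Rasgrf2, -0.31 ± 0.423 for Cux1, -0.11 ± 0.231 for Pou3f2, -0.10 ± 0.111 for Calb1 and -0.0037 ± 0.0881 for Pou3f3. The adjusted p was 1.00 for all 7, 0% of the tested genes passed the adjusted threshold, and 1.66% had an unadjusted p under 0.05, none of them a marker. With the gene length trend of each library as a covariate, an added alternative described in the account of co-variation, the estimates of Cux1, Rasgrf2, Pou3f2 and Pou3f3 were above 0, at 0.047, 0.12, 0.050 and 0.047. Single libraries also moved these values. Without replicate 1 of the vehicle group Rasgrf2 was -0.030, Cux2 -0.25, Pou3f2 0.025 and Pou3f3 0.058, and the median of the 7 was -0.045. The median was -0.069 without replicate 3 of the vehicle group, -0.087 and -0.12 without replicates 2 and 3 of the psilocybin group, and -0.44 without its replicate 4.

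After psilocybin at 3 mg/kg, Calb1 had a log2 fold change of 0.31 ± 0.110 against the vehicle group, with an interval from 0.08 to 0.53, an unadjusted p of 0.0104 and an adjusted p of 0.997 in edgeR. It was the 1 marker of 7 with an unadjusted p under 0.05, where 3% of all tested genes had one and 0% passed after adjustment. Without the 5 libraries named above for their mitochondrial share or distance, the Calb1 estimate was 0.19, and without replicate 1 of the psilocybin group it was 0.22. Over all 15 alternatives the Calb1 estimate was 0.19 to 0.36. Estimates were -0.38 ± 0.423 for Cux1, -0.31 ± 0.232 for Pou3f2, -0.16 ± 0.509 for Rasgrf2, -0.16 ± 0.0882 for Pou3f3, -0.12 ± 0.328 for Cux2 and 0.14 ± 0.453 for Rorb. The median was -0.16, against -0.01 over all tested genes, and 5 of the 7 lay below 0.

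Ketanserin alone at 1 mg/kg left the markers on both sides of 0, from -0.29 ± 0.510 for Rasgrf2 to 0.11 ± 0.110 for Calb1. Between them lay Rorb at -0.09 ± 0.456, Cux1 at -0.08 ± 0.422, Cux2 at -0.05 ± 0.328, Pou3f2 at 0.04 ± 0.231 and Pou3f3 at 0.05 ± 0.0882. None had an unadjusted p under 0.05, against 2.06% of tested genes, and 0% of genes passed after adjustment. At 3 mg/kg all 7 estimates lay above 0, with a median of 0.10: Calb1 at 0.18 ± 0.110, Cux1 at 0.13 ± 0.420, Pou3f2 at 0.10 ± 0.231, Pou3f3 at 0.10 ± 0.0881, Rorb at 0.09 ± 0.454, Rasgrf2 at 0.08 ± 0.507 and Cux2 at 0.04 ± 0.328. Again 0 markers had an unadjusted p under 0.05, where 2% of genes did and 0% passed after adjustment. Over all tested genes the median at 3 mg/kg was -0.02, with 45.45% of genes above 0. The signs of 5 of the 7 marker estimates turned under voom with sample weights, as the closing values give. Single libraries moved them too. Without replicate 3 of the ketanserin 3 mg/kg group 5 of the 7 lay below 0, with a median of -0.09. Without replicate 2 of the vehicle group 3 did, with a median of 0.01.

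With both drugs at 1 mg/kg, 4 markers lay above and 3 below the vehicle group, with a median of 0.04. The estimates were 0.13 ± 0.420 for Cux1, 0.13 ± 0.453 for Rorb, 0.13 ± 0.110 for Calb1, 0.04 ± 0.507 for Rasgrf2, -0.0044 ± 0.328 for Cux2, -0.02 ± 0.0881 for Pou3f3 and -0.13 ± 0.231 for Pou3f2. No marker had an unadjusted p under 0.05, against 1.3% of genes, and 0% passed after adjustment. With both drugs at 3 mg/kg, 6 of 7 lay above the vehicle group, with a median of 0.14 against -0.02 over all tested genes. The estimates were 0.25 ± 0.453 for Rorb, 0.21 ± 0.507 for Rasgrf2, 0.15 ± 0.231 for Pou3f2, 0.14 ± 0.420 for Cux1, 0.12 ± 0.328 for Cux2, 0.05 ± 0.110 for Calb1 and -0.12 ± 0.0882 for Pou3f3. That comparison had 1 gene past the adjusted threshold, or 0.00575% of those tested, and 3.13% at an unadjusted p under 0.05, with no marker in either count. Its direction depended on single libraries. Without replicate 4 of the group given both drugs at 3 mg/kg, 5 of the 7 estimates lay below 0, with a median of -0.10. Without replicate 2 of the vehicle group 5 also did, with a median of -0.06. Leaving out any other library of these groups kept 6 above 0.

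**Figure D3:**
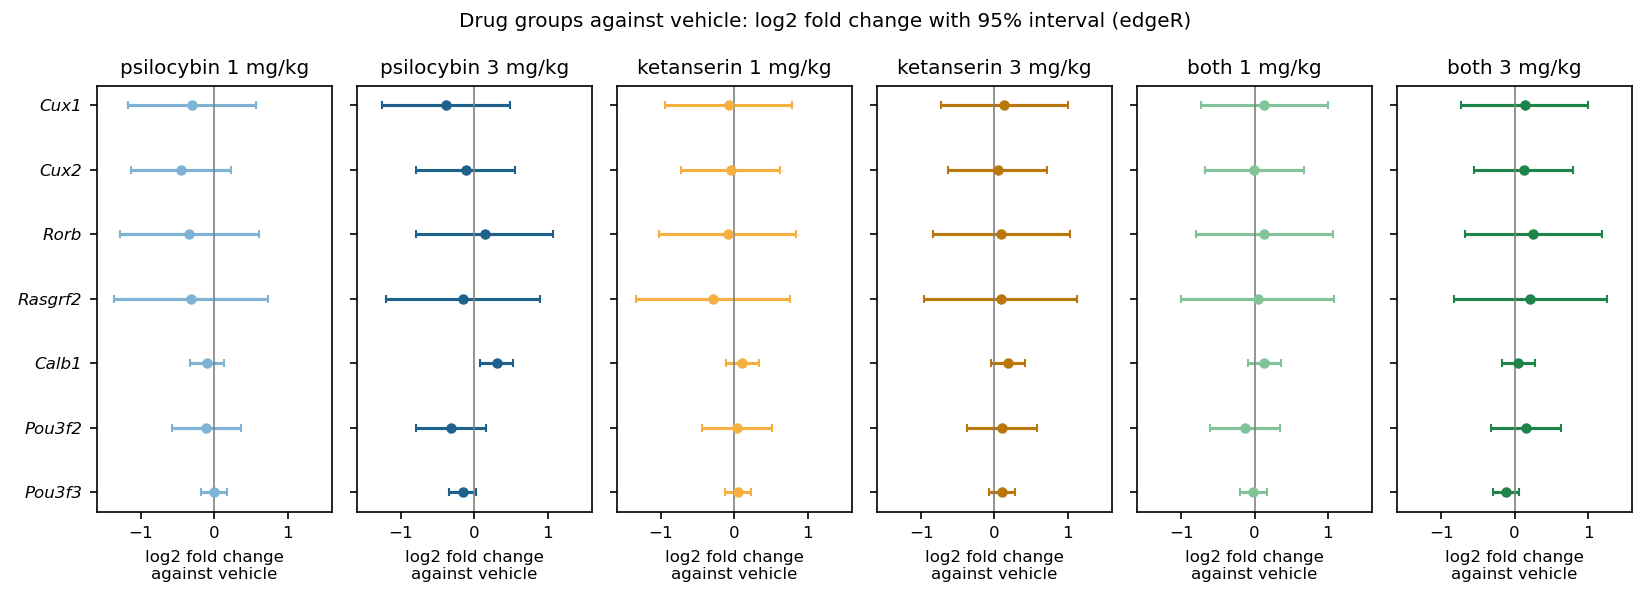
Log2 fold change of each marker in 6 drug groups against the vehicle group, with 95% intervals from edgeR; each panel is a drug group and the vertical line marks 0. Every interval but that of Calb1 after psilocybin at 3 mg/kg, 0.08 to 0.53, includes 0, and the intervals of Cux1, Rorb and Rasgrf2 are the widest.

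The intervals set what these comparisons could show. For Pou3f3 they excluded changes beyond -0.34 and 0.28 on the log2 scale in every comparison with the vehicle group, whereas for Rasgrf2 they reached from -1.37 to 1.26. Those of Pou3f2 reached from -0.79 to 0.63. A p above the threshold therefore does not show that any marker was alike in these groups, least of all Rasgrf2, Rorb, Cux1 or Cux2.

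Adding ketanserin to psilocybin set the combinations against psilocybin alone. At 1 mg/kg Calb1 had the smallest p, with a log2 fold change of 0.23 ± 0.110 (interval 0.01 to 0.46, unadjusted p 0.0444, adjusted p 0.894 in edgeR), and the other markers lay between -0.02 and 0.47. At 3 mg/kg Calb1 lay on the other side of 0, at -0.25 ± 0.110 (interval -0.48 to -0.03, unadjusted p 0.0293, adjusted p 0.693), and the other markers between 0.04 and 0.52. In each comparison Calb1 was the 1 marker of 7 with an unadjusted p under 0.05, against 4.13% of genes at 1 mg/kg and 5.74% at 3 mg/kg, and 0% of genes passed after adjustment in either. Under voom with sample weights the estimate at 1 mg/kg passed, at 0.37 with an adjusted p of 0.0390, in a fit that called 349 genes or 2.01%, where the adjusted p was 0.0390 to 1.00 over its 15 alternatives. In edgeR the estimate at 1 mg/kg was 0.15 without the 5 libraries and 0.39 without replicate 1 of the psilocybin group, and that at 3 mg/kg was -0.17 without replicate 1 of the psilocybin group.

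Adding psilocybin to ketanserin gave no marker with an unadjusted p under 0.05 at 1 mg/kg, where Pou3f2 had the smallest p at -0.17 ± 0.231, 2.92% of genes had such a p and 0% passed after adjustment. At 3 mg/kg Pou3f3 was -0.22 ± 0.0881 (interval -0.40 to -0.04, unadjusted p 0.0206, adjusted p 1.00 in edgeR). It was the 1 marker of 7 with an unadjusted p under 0.05, against 3.41% of genes, and 0% passed after adjustment. The other markers lay between -0.13 and 0.16. Under voom with sample weights the Pou3f3 estimate was -0.10, and over its 14 alternatives it was -0.25 to -0.10.

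The dose comparisons set 3 mg/kg against 1 mg/kg. For psilocybin, the log2 fold change of Calb1 was 0.41 ± 0.111, with an interval from 0.18 to 0.63, an unadjusted p of 0.00114 and an adjusted p of 0.794 in edgeR. It was the 1 marker of 7 with an unadjusted p under 0.05, while 3.24% of genes had one and 0% passed after adjustment. Whether it passed depended on 1 library and on the tool. Without replicate 1 of the psilocybin 1 mg/kg group, the one Calb1 value there at 104 CPM, the estimate was 0.55 with an adjusted p of 0.0427, in a fit that called 4 genes or 0.0225%. Under voom with sample weights it was 0.46 with an adjusted p of 0.0163, in a fit that called 96 genes or 0.552%. Over all 15 alternatives the estimate was 0.25 to 0.55 and the adjusted p 0.0163 to 1.00, and without the 5 libraries the estimate was 0.25.

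Transcripts of other cell types differed between libraries alongside Calb1. The summed level of 10 markers of myelin and mature oligodendrocytes, such as Mbp, was 2380 to 5840 CPM after psilocybin at 3 mg/kg, against 3190 to 8820 CPM after psilocybin at 1 mg/kg, and none of the 10 was at 0 in any library. All 10 had estimates below 0 in this comparison, with a median log2 fold change of -0.79 against 0.0091 over all tested genes. An unadjusted p under 0.05 was found for 6 of the 10, against 3.24% of all tested genes, while 0 passed after adjustment in edgeR. Of the 4 choroid plexus markers, Ttr, which encodes transthyretin, was the 1 with enough counts to be tested. It was at 0 in 2 of the 28 libraries and reached 15.3 CPM, and its log2 fold change in this comparison was -3.83, with an unadjusted p under 0.05 and an adjusted p of 1.00 in edgeR. The summed level of the 4 was 0.639 to 2.58 CPM after psilocybin at 3 mg/kg, against 0.720 to 16.5 CPM after 1 mg/kg. The myelin median also lay opposite to Calb1 in its other directional comparisons with an unadjusted p under 0.05 in edgeR. It was -0.45 in psilocybin at 3 mg/kg against vehicle and 0.28 in the interaction at 3 mg/kg. Both drugs against psilocybin alone gave -0.27 at 1 mg/kg and 0.22 at 3 mg/kg. None of the 10 had an unadjusted p under 0.05 there. Elsewhere the signs could be the same, as in ketanserin at 3 against 1 mg/kg, at 0.22 beside 0.07 for Calb1.

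Across the 28 libraries, centred within groups, Calb1 had a Pearson r of -0.65 with Ttr, -0.64 with the mean of the myelin markers and -0.53 with that of the oligodendrocyte precursor markers. With the other 10 lists its r lay between -0.18 and 0.355, with 0.17 for interneuron markers and -0.13 for striatum markers. The part of these other cell types in the Calb1 differences was not tested.

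The dose comparisons of ketanserin and of both drugs had no marker with an unadjusted p under 0.05. For ketanserin, all 7 estimates lay above 0, from 0.05 to 0.38, where 51.34% of all tested genes did. Rasgrf2 had the smallest p, at 0.38 ± 0.510. Of the 7, 0 had an unadjusted p under 0.05, against 1.64% of genes with 0% after adjustment. For both drugs the markers lay between -0.10 and 0.28, with the smallest p for Pou3f2 at 0.28 ± 0.231, and 0 of 7 against 3.3% of genes had an unadjusted p under 0.05, with 0% after adjustment.

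The interaction is the difference made by ketanserin on top of psilocybin less the difference made by ketanserin on its own, so 0 means that the drugs' log2 differences add. At 1 mg/kg the estimates were 0.65 ± 0.721 for Rasgrf2, 0.56 ± 0.645 for Rorb, 0.52 ± 0.597 for Cux1, 0.50 ± 0.464 for Cux2, 0.12 ± 0.156 for Calb1, and -0.06 for Pou3f2 and Pou3f3, with SEs of 0.327 and 0.125. None had an unadjusted p under 0.05, against 4.09% of genes, and 0% passed after adjustment. Under voom with sample weights Cux2 passed, at 1.07 with an adjusted p of 0.0412, in a fit that called 1249 genes, while with the length trend as a covariate its estimate was -0.06; over its 22 alternatives the adjusted p was 0.0412 to 1.00.

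At 3 mg/kg the interaction of Calb1 was -0.44 ± 0.156 (interval -0.76 to -0.12, unadjusted p 0.00941, adjusted p 0.993 in edgeR), and it lay between -0.49 and -0.33 over 23 alternatives. The others were 0.39 ± 0.596 for Cux1, 0.36 ± 0.327 for Pou3f2, 0.29 ± 0.718 for Rasgrf2, 0.20 ± 0.463 for Cux2, 0.02 ± 0.642 for Rorb and -0.06 ± 0.125 for Pou3f3. In this comparison 3.2% of genes had an unadjusted p under 0.05 and 0% passed after adjustment. The test for any difference among the 7 groups gave Calb1 an unadjusted p of 0.0307, the 1 marker under 0.05 where 2.22% of genes were, and Pou3f3 one of 0.0945. Of all genes 0.0172% passed that test after adjustment, none of them a marker. These comparisons share control and drug groups, so their values are not independent of each other.

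Spread within groups set the markers apart from each other. The within-group SD of log2 CPM was 0.792 for Rasgrf2, 0.691 for Cux1, 0.664 for Rorb, 0.510 for Cux2, 0.341 for Pou3f2, 0.152 for Calb1 and 0.113 for Pou3f3, where the median of 13578 expressed genes (mean log2 CPM of at least 1) was 0.273. Rasgrf2 stood at the 94.4 percentile of those genes, Cux1 at 91.8 and Rorb at 91.0, against 15.4 for Calb1 and 5.21 for Pou3f3. The groups held 47.5% of the variance of Calb1 and 41.5% of that of Pou3f3, and 6.73 to 16.9% of that of the other 5, where the median gene had 18.2%. Cux2, with 562 to 2011 counts per library, stood at the 83.5 percentile.

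The markers varied together between libraries. Over 28 libraries centred within groups, Cux2 and Rasgrf2 had a Pearson r of 0.93 and a Spearman rho of 0.93. Rasgrf2 had an r of 0.77 with Rorb, 0.75 with Cux1 and 0.72 with Pou3f2, and Cux2 had 0.75 with Pou3f2. The median of the 21 marker pairs was 0.56, and 13 pairs were over 0.5, against 14.7% of all pairs of expressed genes, whose median was 0.00. Calb1 stood outside: its r was 0.45 with Cux2 and between -0.05 and 0.33 with the other 5. These points share their libraries, and the r of 0.93 was 0.92 without the library that stood apart.

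**Figure D4:**
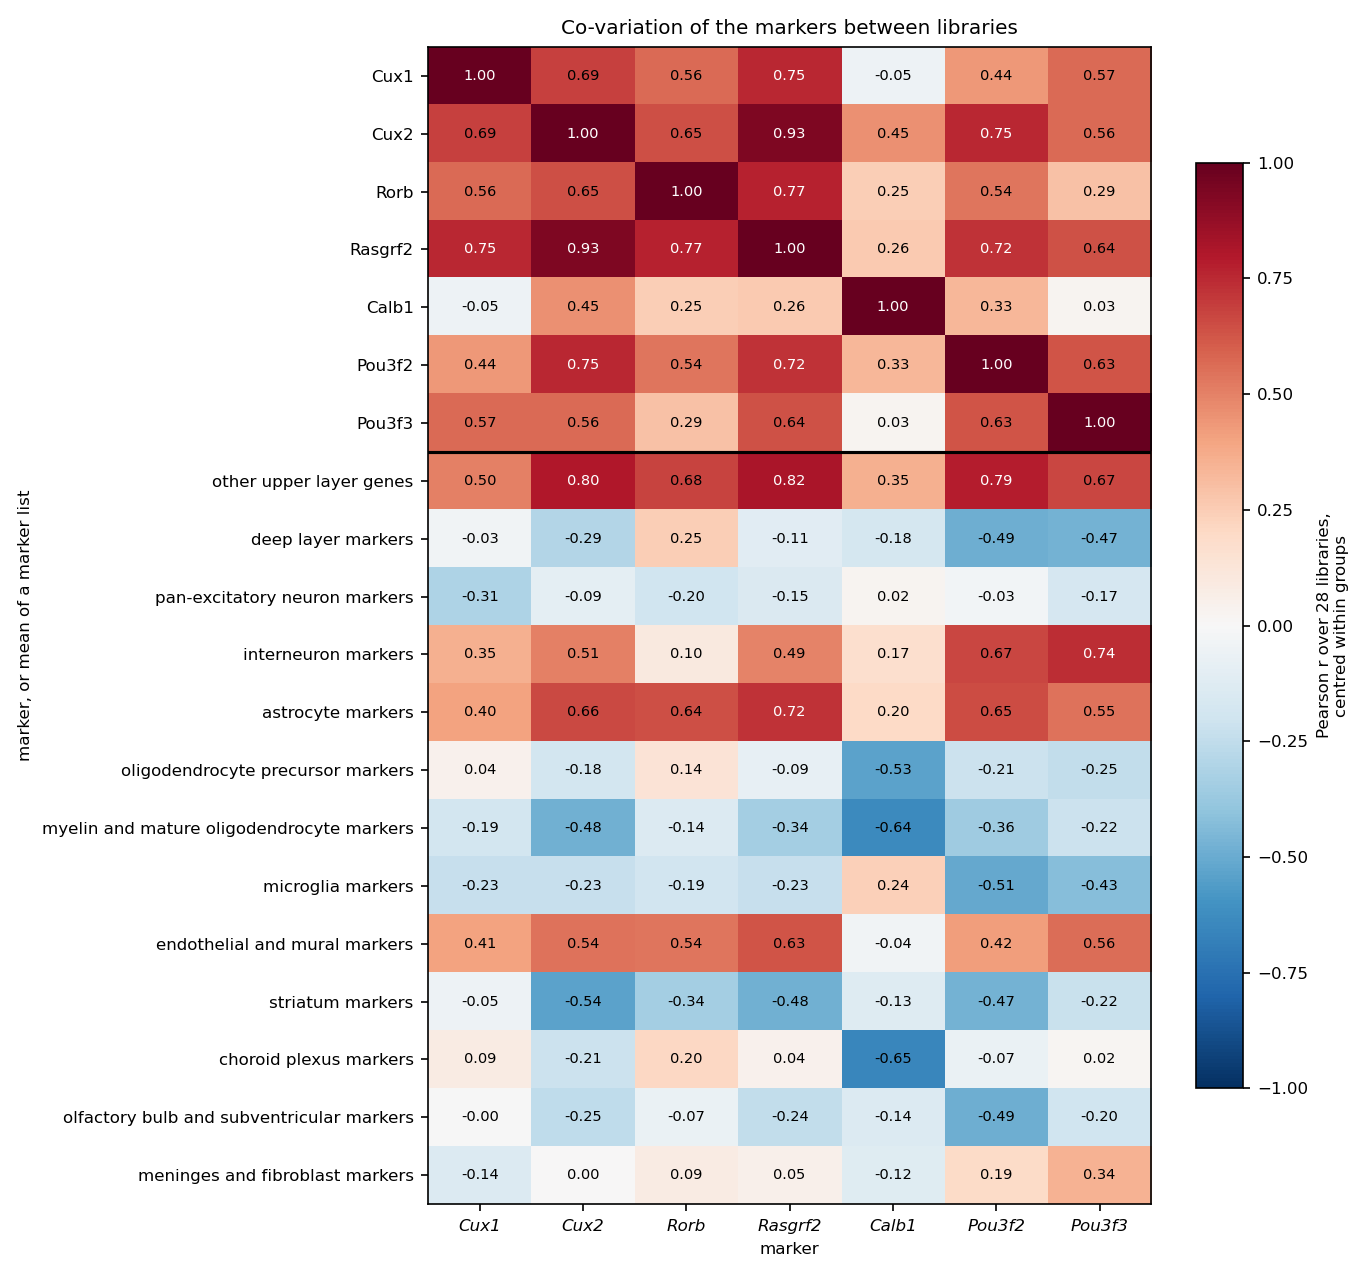
Pearson r over 28 libraries, centred within groups, between the 7 markers (above the line) and between each marker and the mean of a marker list (below it); red is positive and blue negative. Cux2 and Rasgrf2 share the highest r between markers, 0.93, and Calb1 has its lowest values with the choroid plexus list, -0.65, for which Ttr alone was tested, and with the myelin list, -0.64.

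The co-varying markers also followed library-wide measures. For each library, a gene length trend was computed as the Spearman rho between the length of each gene and the deviation of its log2 CPM from its mean over the libraries. It ran from -0.38 to 0.35, and each r was taken after centring marker and measure within groups unless stated. Its r with log2 CPM was 0.93 for Rasgrf2, 0.88 for Cux2, 0.81 for Pou3f2, 0.77 for Pou3f3, 0.74 for Cux1 and 0.69 for Rorb, against 0.17 for Calb1; leaving out the 2 libraries farthest from the median gave 0.92, 0.89, 0.79, 0.72, 0.71, 0.65 and 0.27. Over all expressed genes this r ran from -0.86 to 0.87 between the 5th and 95th percentiles, so of the markers Rasgrf2 and Cux2 lay beyond it. With the mitochondrial share the r was -0.90 for Cux2, -0.89 for Rasgrf2, -0.73 for Cux1, -0.66 for Pou3f2, -0.62 for Rorb, -0.49 for Pou3f3 and -0.31 for Calb1. With total count it lay between -0.29 and -0.01. Without centring, the r with the length trend was 0.92 for Rasgrf2, 0.84 for Cux2 and 0.76 for Pou3f2 and Cux1. It was 0.66 for Rorb, 0.59 for Pou3f3 and 0.099 for Calb1. With the mitochondrial share, Pou3f3 had an r of -0.30 without centring. What sets these library measures was not tested.

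**Figure D5:**
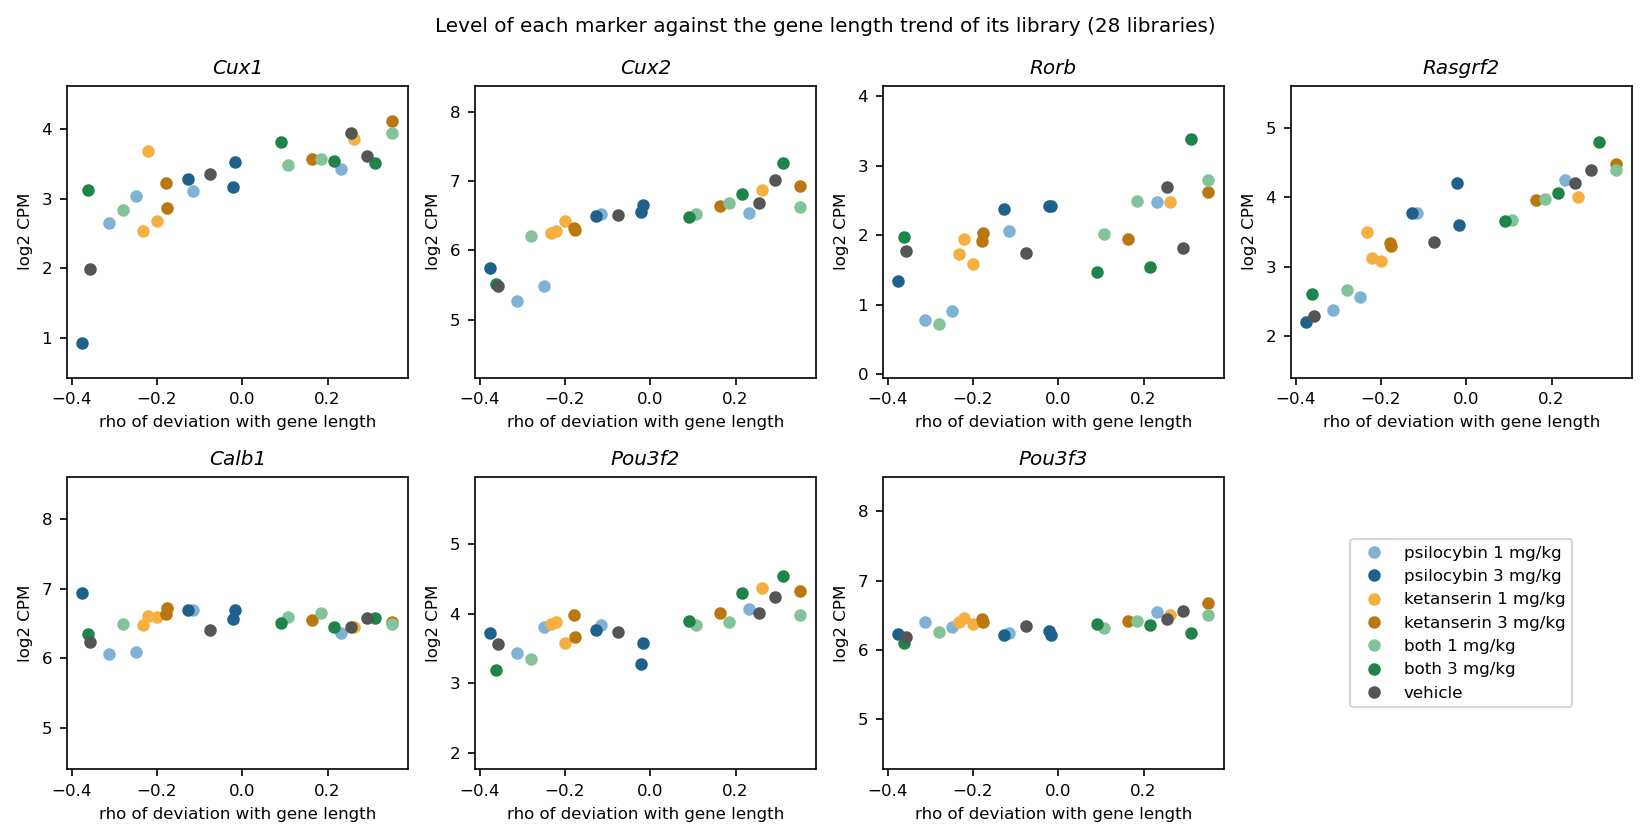
Log2 CPM of each marker against the gene length trend of its library, with 1 dot per library coloured by group; the vertical axes span the same number of log2 units. The plotted values and the r given here are not centred within groups. Rasgrf2 (r = 0.92) and Cux2 (r = 0.84) climb along the trend with libraries of all groups mixed, and Calb1 (r = 0.099) stays level.

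Other upper layer genes were measured the same way. The mean of 18 further upper layer genes had an r of 0.88 with the length trend, 0.82 with Rasgrf2, 0.80 with Cux2 and 0.355 with Calb1. Deep layer markers had -0.28 with the trend and -0.11 with Rasgrf2, and astrocyte markers 0.76 and 0.72, so the association was not limited to upper layer genes. None of the 18 passed after adjustment in edgeR in any of the 16 comparisons, and 0 to 5 of them had an unadjusted p under 0.05. The 5 were in psilocybin at 3 mg/kg against 1 mg/kg, where 3.24% of all genes had such a p. There were 3 in psilocybin at 3 mg/kg against the vehicle group, where 3% of genes did, and 3 in both drugs at 1 mg/kg against psilocybin alone, where 4.13% did. Against the vehicle group their medians were -0.08, -0.04, -0.01, 0.01, -0.02 and 0.01 for psilocybin at 1 and 3 mg/kg, ketanserin at 1 and 3 mg/kg and both at 1 and 3 mg/kg. Mdga1, a cell adhesion gene, and Rspo1, a secreted activator of Wnt signalling, had the smallest p after psilocybin at 3 mg/kg, at -0.52 ± 0.221 and -1.09 ± 0.442, with an adjusted p of 0.997 each in edgeR. By the same choice the pair was Matn2 at -0.42 and Wfs1 at -0.20 after psilocybin at 1 mg/kg, Adamts2 at -0.34 and Otof at -0.15 after ketanserin at 1 mg/kg, and Adamts2 at -0.43 and Lamp5 at -0.19 after ketanserin at 3 mg/kg. With both drugs at 1 mg/kg Adamts2 was at -0.44, and at 3 mg/kg the pair was Lhx2 at -0.17 and Kcnh5 at 0.77.

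For each marker, 3 named genes with the most similar pattern over the 28 libraries were found by Pearson r. Rasgrf2 was closest to Tln2 at 0.98, Wdfy3 at 0.98 and Nav3 at 0.97. Cux2 was closest to Pdzrn3 at 0.96, Kalrn at 0.96 and Gabbr2 at 0.95, and Cux1 to Rap2a at 0.94, Ndrg3 at 0.93 and Ip6k1 at 0.93. Rorb was closest to Pcdh19 at 0.91, Zc3h12b at 0.88 and Acap2 at 0.88. Pou3f2 was closest to Ppp3ca, Lmtk2 and Srpk2, each at 0.86, and Pou3f3 to LOC100910429 at 0.86, Pam at 0.84 and Slc1a3 at 0.82. Calb1 had the weakest neighbours, Zfp202 at 0.70, Fam124a at 0.68 and Meis2 at 0.67.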

How the data were processed

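RNA of 28 libraries from prefrontal cortex was analysed. The kit selected poly-A transcripts and marked the strand with dUTP, per the labels' protocols. The submitters' processing notes name featureCounts 1.5.0-p3, HISAT2 2.0.5, StringTie 1.3.3b and the build rn6, and they give no strand setting for the counting. The authors deposited raw counts of reads per gene and, beside them, FPKM values per gene, per the file headers. No other gene of the table overlaps a marker.

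Counts were tested in R 4.3.3 with edgeR 4.0.16 (filterByExpr by group, TMM scaling, 1 coefficient per group over all 28 libraries, 21 residual degrees of freedom, robust quasi-likelihood F test, two-sided). Benjamini-Hochberg adjustment covered all 17404 tested genes, and genes with an adjusted p below 0.05 were called. The 95% intervals use the SEs of that fit. CPM uses TMM-scaled totals, and log2 CPM a prior count of 2. Alternatives were RLE scaling, DESeq2 1.42.0, voom with sample weights in limma 3.58.1, no filter on low counts, only the groups compared, and each library left out in turn. The gene length trend as a covariate and leaving out 5 libraries were added after seeing the data. The edgeR steps were tested on simulated counts drawn separately for each gene, without the variation that genes share between these libraries. Promoter sequences are from RefSeq, build GRCr8. The FPKM file was used for levels between genes only.

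The markers and all gene lists were chosen with earlier results of these data known. Named genes are all 7 markers against vehicle and in the interactions, the marker with the smallest p in the other comparisons, the 2 other upper layer genes with the smallest p against vehicle, and the 3 genes most like each marker. A gene that this rule names is not reported here. Of the other marker lists, no gene passed after adjustment. Replicate numbers follow accession order and pair nothing. The labels call the 4 libraries of a group biological replicates and do not tie them to litters or days, and the p-values measure the spread between them.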

Additional observations from a re-analysis of the deposited data

Results flagged for a closer look

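In 5 of 49 marker and group pairs, 1 library lay far from the other 3, by a gap to its nearest neighbour of more than 0.829 of the group's range; chance alone flags about 1 in 20 such groups. Rorb accounts for 4 of them. It had 2.41 CPM in replicate 1 after psilocybin at 3 mg/kg, where the other 3 libraries had 5.08 to 5.24 CPM. After ketanserin at 3 mg/kg, replicate 3 had 6.01 CPM and the others 3.65 to 3.98 CPM. With both drugs at 3 mg/kg, replicate 4, the library that stands apart on the first principal component, had 10.3 CPM and the others 2.63 to 3.78 CPM. In the vehicle group, replicate 3 had 6.32 CPM and the others 3.22 to 3.38 CPM. Pou3f3 had 102 CPM in replicate 3 after ketanserin at 3 mg/kg, the library that was also high for Rorb, and the others had 84.9 to 87.1 CPM.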

How the results depend on the processing

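Recomputed estimates cover all 7 markers against vehicle and in the interactions, and in the other comparisons only the marker with the smallest p. Without the 5 libraries, only values of Calb1 were recorded, so the other markers were not followed there. Of 1005 such estimates under the alternatives, 889 kept their direction and their side of the adjusted threshold, 112 changed sign and 4 passed the threshold where the reported value did not. Those that passed were Calb1 in psilocybin 3 against psilocybin 1 without replicate 1 of the psilocybin 1 group (0.55) and under voom (0.46), Calb1 in both 1 against psilocybin 1 under voom (0.37, adjusted p 0.0390, over its 15 alternatives 0.0390 to 1.00), and Cux2 in the interaction at 1 under voom (1.07). The test over the 7 groups, which has no direction, stayed above the threshold for every marker in 232 of 232 recomputed p-values. None of the values that changed sign had passed the threshold, and the cause was not tested. RLE scaling changed no count of calls by over 1.5 times and no sign. Doses here are in mg/kg of each drug. The median correlation of the marker pairs, 0.56, was 0.62 by Spearman, 0.49 without centring and 0.58 without the distant library. CPM per kilobase, which scales as FPKM does and so is no independent check, kept all 7 ranks. No paired analysis was possible because the labels give no replicate numbers, and the numbers used here follow accession order.

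DESeq2 called 15 genes in the test over the 7 groups, 6 genes in psilocybin 3 against psilocybin 1, 5 genes in both 3 against ketanserin 3, 3 genes in psilocybin 1 against vehicle and 1 gene in ketanserin 1 against vehicle, ketanserin 3 against vehicle, both 1 against vehicle, both 1 against psilocybin 1 and both 3 against psilocybin 3. Voom with sample weights called 1249 genes in the interaction at 1, 349 genes in both 1 against psilocybin 1, 96 genes in psilocybin 3 against psilocybin 1, 16 genes in both 1 against ketanserin 1, 2 genes in both 3 against ketanserin 3, 1 gene in psilocybin 1 against vehicle, both 3 against psilocybin 3, both 3 against both 1, the interaction at 3 and the test over the 7 groups and 0 genes in both 3 against vehicle. It called 1 marker each in both 1 against psilocybin 1, psilocybin 3 against psilocybin 1 and the interaction at 1. A fit of only the groups compared called 2 genes in ketanserin 1 against vehicle and both 1 against vehicle and 1 gene in psilocybin 1 against vehicle, psilocybin 3 against vehicle, ketanserin 3 against vehicle, both 3 against psilocybin 3 and both 3 against ketanserin 3. Testing without a filter on low counts called 0 genes in both 3 against vehicle. The length trend as a covariate called 5 genes in psilocybin 3 against psilocybin 1 and 0 genes in both 3 against vehicle. Leaving out the 5 libraries called 2 genes in ketanserin 1 against vehicle and 0 genes in both 3 against vehicle and the test over the 7 groups. Leaving out 1 library at a time gave 0 to 1 called genes in both 3 against vehicle, both 1 against vehicle, both 3 against psilocybin 3, both 3 against ketanserin 3, both 1 against psilocybin 1 and the interaction at 1, 0 to 4 called genes in psilocybin 3 against psilocybin 1, 1 to 3 called genes in the test over the 7 groups and 0 to 1 called markers in psilocybin 3 against psilocybin 1.

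With the length trend as a covariate these estimates changed sign: in psilocybin 1 against vehicle Cux1 0.047, Rasgrf2 0.12, Pou3f2 0.050 and Pou3f3 0.047, in psilocybin 3 against vehicle Cux2 0.21 and Rasgrf2 0.41, in ketanserin 1 against vehicle Cux1 0.23, Cux2 0.23, Rorb 0.11 and Rasgrf2 0.25, in both 1 against vehicle Rorb -0.10 and Rasgrf2 -0.066, in ketanserin 3 against ketanserin 1 Rasgrf2 -0.076, in the interaction at 1 Cux1 -0.19, Cux2 -0.058, Rorb -0.025 and Rasgrf2 -0.43, in the interaction at 3 Cux2 -0.26, Rorb -0.34 and Rasgrf2 -0.45. Under voom these estimates changed sign: in ketanserin 1 against vehicle Pou3f2 -0.15 and Pou3f3 -0.0086, in ketanserin 3 against vehicle Cux1 -0.27, Cux2 -0.25, Rorb -0.011, Rasgrf2 -0.36 and Pou3f2 -0.057, in both 1 against vehicle Rasgrf2 -0.032, in both 3 against vehicle Cux2 -0.11, Rorb -0.49 and Rasgrf2 -0.13, in both 1 against ketanserin 1 Pou3f2 0.010, in the interaction at 1 Pou3f2 0.18 and Pou3f3 0.033, in the interaction at 3 Rorb -0.79 and Pou3f3 0.10. Without a filter these estimates changed sign: in psilocybin 1 against vehicle Pou3f3 0.0076, in both 1 against vehicle Cux2 0.0086, in the interaction at 3 Rorb -0.0056. With only the groups compared these estimates changed sign: in both 1 against vehicle Cux2 3.89e-06. Leaving out 1 library at a time, the estimates that crossed 0 ranged as follows. In psilocybin 1 against vehicle the range was Pou3f2 -0.21 to 0.025 and Pou3f3 -0.059 to 0.058. In psilocybin 3 against vehicle the range was Cux2 -0.33 to 0.089 and Rasgrf2 -0.42 to 0.13. In ketanserin 1 against vehicle the range was Cux1 -0.33 to 0.18, Cux2 -0.26 to 0.16, Rorb -0.31 to 0.21 and Pou3f2 -0.13 to 0.17. In both 1 against vehicle the range was Cux2 -0.22 to 0.20, Pou3f2 -0.22 to 0.0013, Pou3f3 -0.070 to 0.046, Cux1 -0.13 to 0.38, Rasgrf2 -0.23 to 0.33 and Rorb -0.15 to 0.43. In the interaction at 3 the range was Cux2 -0.086 to 0.44, Rasgrf2 -0.14 to 0.57, Rorb -0.64 to 0.22 and Pou3f3 -0.12 to 0.0010. In ketanserin 3 against vehicle the range was Cux1 -0.13 to 0.39, Cux2 -0.17 to 0.25, Rasgrf2 -0.20 to 0.37, Rorb -0.096 to 0.39 and Pou3f2 -0.012 to 0.24. In both 3 against vehicle the range was Cux1 -0.13 to 0.39, Cux2 -0.16 to 0.36, Calb1 -0.0042 to 0.11, Rasgrf2 -0.21 to 0.50, Rorb -0.40 to 0.55 and Pou3f2 -0.047 to 0.35. In the interaction at 1 the range was Pou3f2 -0.19 to 0.11. In both 1 against ketanserin 1 the range was Pou3f2 -0.26 to 0.0021.

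Depth limits Rorb most, at 20 counts in its lowest library. With 4 libraries a group, the 95% intervals of Cux1, Cux2, Rorb and Rasgrf2 span more than 1 log2 unit in every comparison with vehicle. Changes inside those intervals are not excluded at this depth and spread.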
